A study of Canis lupus familiaris with 18 samples.

Results

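The expression of 10 vascular genes was followed across the right atrium (RA) and right ventricle (RV) of dogs with pacing-induced heart failure (HF): VEGFA, its receptors KDR and FLT1, the receptors TEK and TIE1, the endothelial surface genes CDH5, PECAM1 and EMCN, the clotting factor gene VWF and the transcription cofactor LMO2. Members were the probe sets to which the platform annotation gives 1 of these 10 symbols and no other. This gave 22 probe sets of 42924 that were not controls, for 10 of 15115 genes with a probe set of their own. Of the 22 probe sets, 17 passed a filter that left out the 40% with the lowest mean signal (log2 signal under 5.31). The other 5, which were 2 of FLT1, 2 of CDH5 and 1 of TIE1, averaged 4.43 to 5.25 and were not tested.

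Total RNA from 18 pieces of snap-frozen tissue was hybridised to Affymetrix Canine_2 arrays, with 3 arrays in each of 6 groups. In each chamber the groups were unpaced controls, early HF after 2 weeks of rapid ventricular pacing (tachypacing) and late HF after 5 weeks, and the protocol text widens these times to 2 to 3 and 5 to 6 weeks. The dogs were adult mongrels or beagles, and the labels carry no breed, sex or age for single animals. Replicates are labelled biological but no animal is identified, so each p-value reflects variation among these samples, part of which may be technical.

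Vascular endothelial growth factor A is secreted by many cells, heart muscle among them, and binds the receptor tyrosine kinases KDR (VEGFR2, which carries most of the growth signal) and FLT1 (VEGFR1, which binds VEGFA tightly and signals weakly). A second receptor system, TEK (TIE2) with its partner TIE1, responds to angiopoietins and keeps vessels stable. CDH5 and PECAM1 hold endothelial cells together at their junctions, EMCN coats capillary and venous endothelium, and VWF is stored in the endothelial cell and released to catch platelets. LMO2 bridges transcription factors in blood-forming and endothelial cells. Several of these genes are also active outside endothelium: PECAM1 and LMO2 in leukocytes, and VWF in megakaryocytes and platelets.

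Values are log2 signals of a probe set, so a difference of 1 is a doubling, and levels of different probe sets are not comparable. Changes are given on the log2 scale, with n = 3 arrays per group and, as error, the standard error (SE) from limma fitted to all probe sets together. A probe set is said to have passed, risen or fallen where its adjusted p was under 0.05 (Benjamini-Hochberg over 25752 probe sets, for each of 11 comparisons). Comparisons of both HF stages with control share the same 3 control arrays.

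One library needs to be named first. In the library labelled RA late 3, the ventricular light chain MYL2 stood at 14.17 against a mean of 7.31 in RA controls and 14.15 in RV controls, and the atrial light chain MYL7 at 11.65 against 14.04 and 11.99. Both light chains therefore went against its label, and other chamber markers were mixed. The atrial genes PAM (10.61) and NR2F2 (6.01) and the ventricular gene IRX5 (8.1) were near the RV control means of 10.66, 6.05 and 7.94. MYL4 (11.65) and DKK3 (9.17) lay between the means of RA controls (14.01 and 12.63) and RV controls (8.79 and 6.82). The atrial gene GJA5, at 8.74, was nearer to RA controls (9.04) than to RV controls (6.77). Because all groups share 1 estimate of spread, this library changes the SE of every comparison, so tests of the 10 genes are given with all 18 arrays and, where the call or the size moved, with 17 arrays (without it). Chamber markers were less uniform elsewhere too: MYL2 read 9.73, 12.06 and 10.53 in RA early HF against 6.51, 6.04 and 9.38 in RA controls, and 12.76 in the library labelled RV late 1 against 14.35 and 14.26 in the other two of its group. Array medians lay between 5.65 and 5.75, and the endothelial marker list (13 of 13 on the array, 8 of them members here) had no gene whose mean lay below the signal limit, with ERG closest to it at 5.23 to 5.56 over the arrays. The array number limits the precision.

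**Figure D1:**
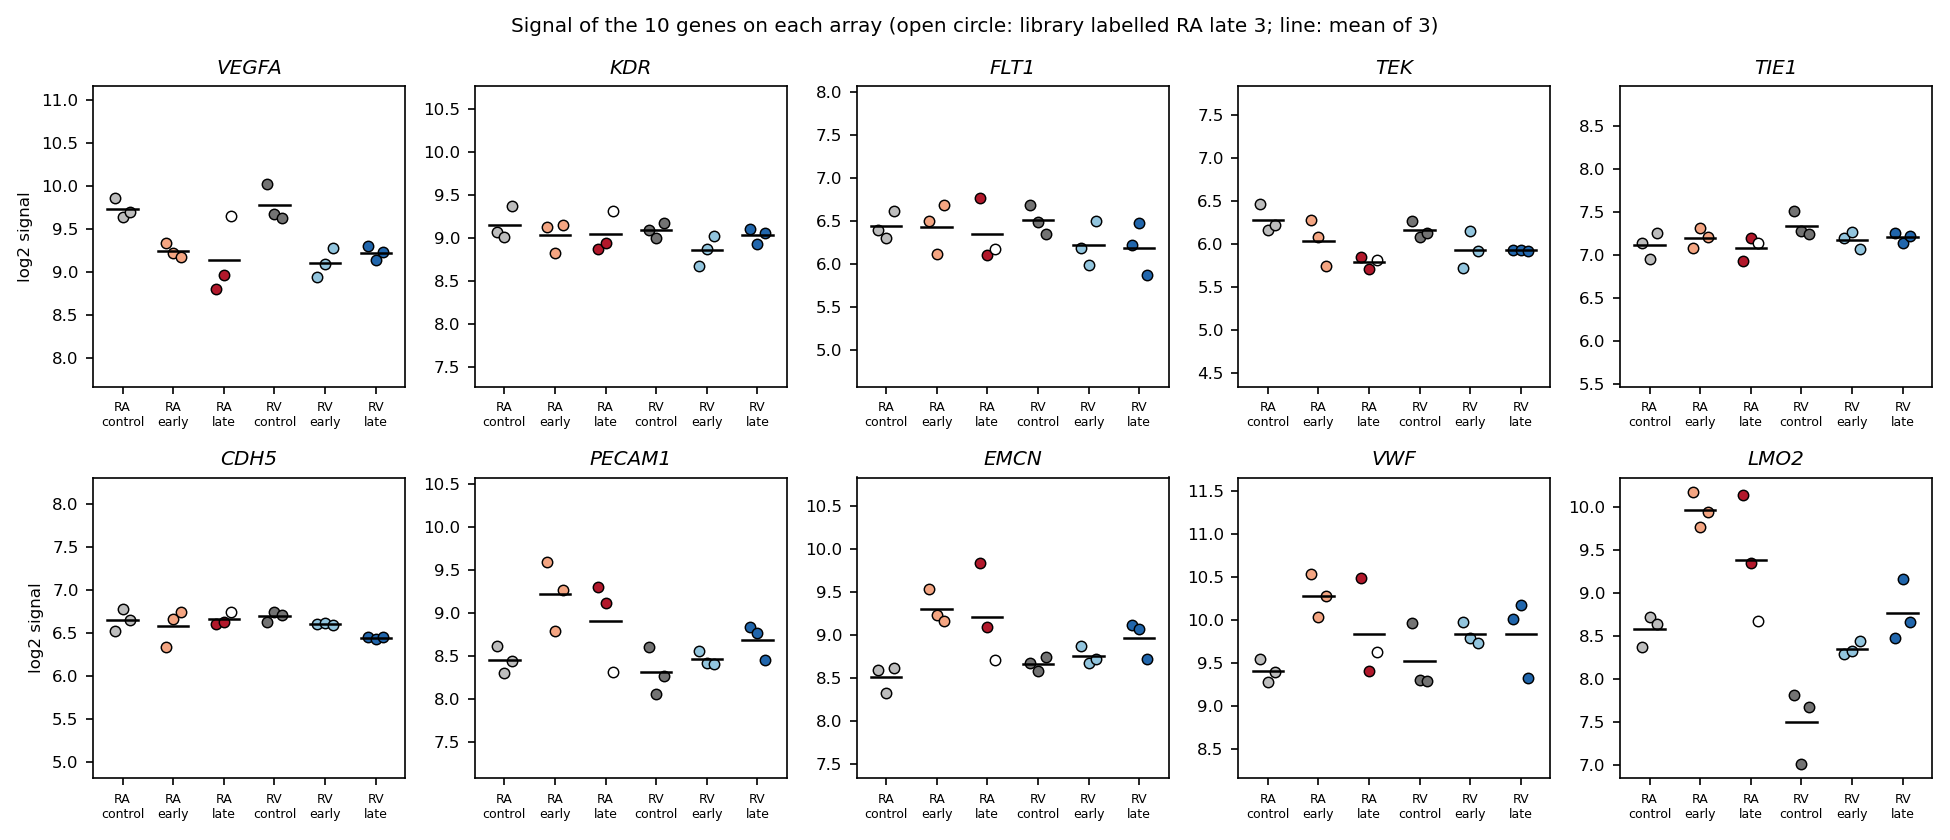
Log2 signal (vertical axis) of each gene's brightest probe set on each of the 18 arrays, by chamber and stage (horizontal axis); filled circles are arrays, the open circle is the library labelled RA late 3, and lines are means of 3 arrays. EMCN, PECAM1, VWF and LMO2 lay higher in RA early HF than in RA controls on every array, VEGFA lay lower, and KDR, FLT1, TIE1 and CDH5 overlapped.

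In early HF, the atrium showed a split among the 10 genes. LMO2 rose 2.61-fold and 1 PECAM1 probe set rose 1.62-fold, and the other probe sets of PECAM1, EMCN and VWF were 1.7-fold to 1.91-fold higher without passing on 18 arrays. KDR, FLT1, TIE1 and CDH5 differed from control by at most 0.11 on the log2 scale, and VEGFA was 1.4-fold lower without passing. In all, 2 of 17 probe sets were higher and 0 lower in RA early HF against RA control, where 0.812% of all probe sets tested were called in either direction. Without the library labelled RA late 3, 8 were higher and 1 lower, against a background of 3.22%. The median change of the 17 was 0.70, beside -0.02 over all probe sets tested. PECAM1, EMCN and LMO2 each enter with several correlated probe sets, so these counts and this median are not over independent genes. Counted once per gene, the 13 endothelial markers, 8 of them members, had a median change of 0.08.

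VEGFA, the ligand, read lower in the paced hearts in both chambers. Its brighter probe set read 9.86, 9.64 and 9.70 in RA controls, 9.34, 9.22 and 9.17 in RA early HF, and 8.80, 8.97 and 9.65 in RA late HF. In the RV it read 10.03, 9.67 and 9.63 in controls, 8.94, 9.09 and 9.28 in early HF, and 9.30, 9.14 and 9.23 in late HF. All early HF arrays of either chamber and all RV late HF arrays lay below every control array of their chamber. In the RA late group, 2 arrays lay below all RA controls and the library labelled RA late 3 did not.

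With 18 arrays no VEGFA change passed. The change was -0.49 (SE 0.18, adjusted p = 0.199 by limma) in RA early HF, -0.59 (SE 0.18, adjusted p = 0.234) in RA late HF, -0.67 in RV early HF (SE 0.18, adjusted p = 0.153) and -0.55 in RV late HF (SE 0.18, adjusted p = 0.428). With 17 arrays, VEGFA fell by 0.49 in RA early HF (SE 0.12, adjusted p = 0.0421), by 0.85 in RA late HF (SE 0.14, adjusted p = 0.0143) and by 0.67 in RV early HF (SE 0.12, adjusted p = 0.0245). In RV late HF, the adjusted p was 0.0821. The difference between chambers in the early effect was 0.18 (95% confidence interval -0.34 to 0.71), so a chamber difference was not resolved. The dimmer probe set, near the middle of the signal range at a mean of 5.91, differed by -0.34, -0.13, -0.22 and -0.29 in the same 4 comparisons and passed in none, with either number of arrays. Without the library labelled RA late 3, where it read 6.51, its RA late change was -0.44 (SE 0.17, adjusted p = 0.177) and the arrays lay below all controls. The 2 VEGFA probe sets correlated at 0.59 over the 18 arrays.

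KDR, the main signalling receptor, passed in no comparison. It read 9.07, 9.01 and 9.37 in RA controls, 9.13, 8.83 and 9.15 in RA early HF, and 8.87, 8.94 and 9.32 in RA late HF. In the RV it read 9.09, 9.00 and 9.18 in controls, 8.67, 8.87 and 9.03 in early HF, and 9.11, 8.93 and 9.06 in late HF. The groups overlapped in all 4 comparisons with control on 18 arrays. Without the library labelled RA late 3 both RA late arrays lay below every RA control, and the change there went from -0.11 to -0.25 (SE 0.14, adjusted p = 0.365 by limma). The change in RA early HF was -0.11 (95% confidence interval -0.42 to 0.19, adjusted p = 0.822 by limma). In RV early HF it was -0.23 (95% confidence interval -0.54 to 0.07).

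FLT1, the other VEGFA receptor, was dim, with a mean of 6.36 on its 1 tested probe set. Its arrays spanned 6.30 to 6.62 in RA controls, 6.12 to 6.68 in RA early HF, 6.10 to 6.77 in RA late HF, 6.35 to 6.69 in RV controls, 5.99 to 6.50 in early RV failure and 5.87 to 6.48 in late RV failure. Its change was 0.00 (SE 0.20) in RA early HF, -0.29 (SE 0.20) in RV early HF and, at the late stage of the RV, -0.32 (SE 0.20, adjusted p = 0.627 by limma). In RA late HF it was -0.09, and 0.00 with 17 arrays. Its 3 probe sets did not move together, with correlations of -0.11 to 0.68 over the arrays, and the 2 untested ones averaged 5.25 and 4.43.

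Neither receptor of the angiopoietin system passed against control on 18 or 17 arrays, and they were not tested against each other. TEK read 6.46, 6.16 and 6.22 in RA controls, 6.28, 6.08 and 5.74 in RA early HF, and 5.84, 5.71 and 5.81 in RA late HF. All 3 RA late arrays, the library labelled RA late 3 included, lay below the lowest RA control. The late change was -0.49 (SE 0.13, adjusted p = 0.193 by limma, and 0.0813 with 17 arrays), so it did not pass. In the RV, TEK read 6.26, 6.08 and 6.13 in controls, 5.72, 6.15 and 5.92 in early HF, and 5.93, 5.93 and 5.91 in late HF, a late change of -0.23 (SE 0.13) with no overlap. TIE1, the partner receptor of TEK, spanned 6.93 to 7.51 over all 18 arrays, and its changes lay between -0.17 and 0.08 in the 4 comparisons with control.

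CDH5, the cadherin of the endothelial junction, gave 2 tested probe sets. The brighter one read 6.52, 6.78 and 6.65 in RA controls and 6.34, 6.66 and 6.75 in RA early HF, a change of -0.07 (95% confidence interval -0.27 to 0.14). In RV late HF it read 6.46, 6.43 and 6.45 against 6.63, 6.74 and 6.71 in RV controls, which did not overlap. That change of -0.25 (SE 0.10, adjusted p = 0.486 by limma) did not pass, and the second probe set stood at -0.02 (SE 0.10) in the same comparison. The 2 CDH5 probe sets correlated at 0.45.

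PECAM1, the other junction gene, gave 4 tested probe sets. The one that passed read 6.30, 6.16 and 6.32 in RA controls, 7.06, 6.87 and 6.94 in RA early HF, and 6.97, 6.59 and 6.34 in RA late HF. The brightest read 8.62, 8.30 and 8.44 in RA controls, 9.59, 8.79 and 9.27 in RA early HF, and 9.30, 9.11 and 8.31 in RA late HF. All 4 probe sets were higher on every RA early array than on any RA control array, and in RA late HF the library labelled RA late 3 was the lowest of its group on each.

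In RA early HF the 4 PECAM1 changes were 0.76, 0.84, 0.70 and 0.85, and 1 passed on 18 arrays (0.70, SE 0.14, adjusted p = 0.0338 by limma). The others had adjusted p of 0.128, 0.0685 and 0.0583. With 17 arrays all 4 passed, at adjusted p of 0.0074 to 0.0313. In RA late HF the changes were 0.37 to 0.60 and none passed, and with 17 arrays they were 0.52 to 0.77 with adjusted p of 0.0641 to 0.0903. In the RV the same probe sets were 0.14 to 0.32 higher in early and 0.07 to 0.38 higher in late HF without passing. The 4 probe sets correlated with each other at 0.79 to 0.93.

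EMCN, the sialomucin of capillaries and veins, gave 2 probe sets that correlated at 0.97. The brighter read 8.59, 8.33 and 8.62 in RA controls, 9.54, 9.23 and 9.16 in RA early HF, and 9.84, 9.09 and 8.71 in RA late HF. In the RV it read 8.68, 8.58 and 8.75 in controls, 8.88, 8.68 and 8.72 in early HF, and 9.12, 9.07 and 8.72 in late HF. On this probe set the RA groups did not overlap control at either stage, and the RV groups did. On the dimmer one, RA late HF overlapped control through the library labelled RA late 3, and RV late HF lay above control on every array. EMCN was 0.80 higher in RA early HF (SE 0.21, adjusted p = 0.0793 by limma) and 0.70 higher in RA late HF (SE 0.21, adjusted p = 0.238), and neither passed on 18 arrays. With 17 arrays both probe sets passed at both stages, at 0.80 and 0.94 in early HF (adjusted p = 0.0185 and 0.0171) and 0.95 and 1.17 in late HF (adjusted p = 0.0242 and 0.0209).

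VWF read 9.54, 9.28 and 9.39 in RA controls, 10.53, 10.03 and 10.28 in RA early HF, and 10.49, 9.40 and 9.62 in RA late HF. In the RV it read 9.96, 9.30 and 9.29 in controls, 9.97, 9.79 and 9.73 in early HF, and 10.01, 10.17 and 9.32 in late HF. Only in RA early HF were all 3 arrays above their controls among the 4 comparisons. The RA early change of 0.88 (SE 0.26) did not pass with 18 arrays (adjusted p = 0.124 by limma) or with 17 (adjusted p = 0.0801). Platelet genes, another source of VWF transcript, had a summed log2 signal of 8.80 to 8.94 in RA controls and 8.81 to 8.94 in RA early HF (6 of 8 on the array, GP1BA below the limit).

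LMO2 showed the largest change of the 17 probe sets in RA early HF and in both stages of the RV. Its brighter probe set read 8.37, 8.72 and 8.63 in RA controls, 10.17, 9.76 and 9.94 in RA early HF, and 10.14, 9.34 and 8.67 in RA late HF. In the RV it read 7.81, 7.01 and 7.67 in controls, 8.29, 8.32 and 8.44 in early HF, and 8.47, 9.16 and 8.66 in late HF. All paced RV arrays and all RA early arrays exceeded every control of their chamber, and so did 2 of 3 RA late arrays. The means fell in the order RA early 9.96, RA late 9.38 (9.74 without the library labelled RA late 3), RV late 8.76, RA control 8.57, RV early 8.35 and RV control 7.50. RA late lay 0.57 below RA early (SE 0.29), and RV late lay 0.41 above RV early (SE 0.29) with the RA control mean between them, so these neighbours did not differ by the test.

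LMO2 rose in RA early HF by 1.38 (SE 0.29, adjusted p = 0.0353 by limma), and its dimmer probe set was 1.16 higher (SE 0.27, adjusted p = 0.0583, and 0.0127 with 17 arrays). In RA late HF the change was 0.81 on 18 arrays (SE 0.29, adjusted p = 0.303) and a rise of 1.17 on 17 (SE 0.25, adjusted p = 0.0337). In RV late HF, where no probe set of the whole array passed with 18 arrays, the change was 1.27 (SE 0.29, adjusted p = 0.386). With 17 arrays it passed in RV late HF (SE 0.23, adjusted p = 0.0377), where 0.132% of all probe sets did. In RV early HF it was 0.85 higher (SE 0.29, adjusted p = 0.341, and 0.115 with 17 arrays).

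**Figure D2:**
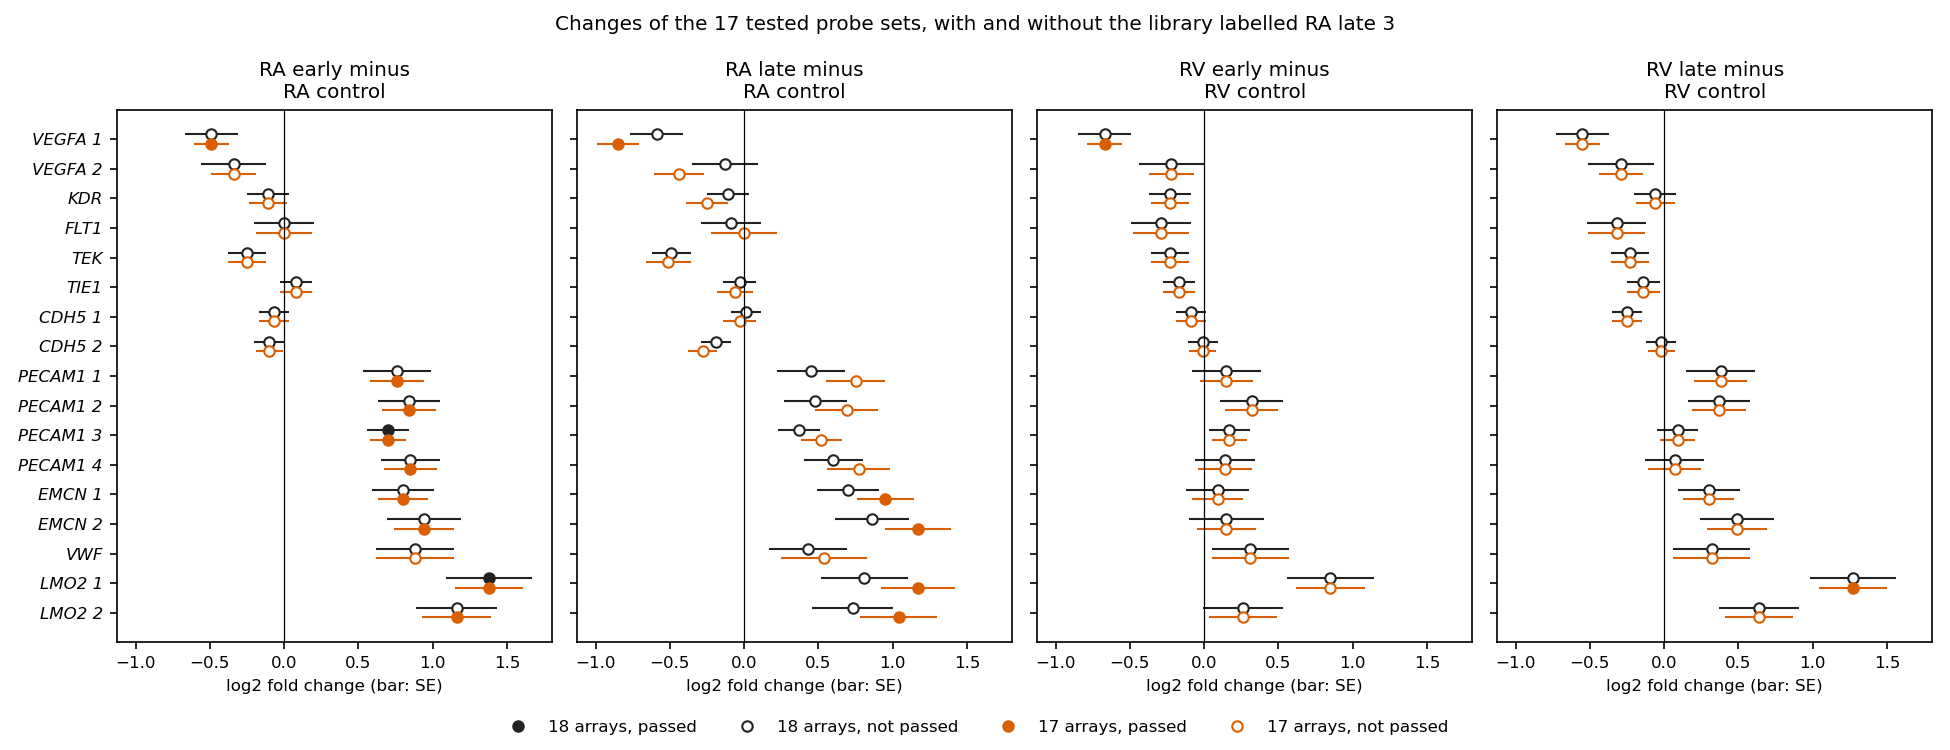
Log2 fold change against control (horizontal axis, bars are SE) of the 17 tested probe sets (vertical axis) in the RA and RV at early and late HF; black is the fit of 18 arrays, orange the fit of 17, and filled symbols passed an adjusted p of 0.05. In RA early HF the 9 probe sets of PECAM1, EMCN, VWF and LMO2 lay between 0.70 and 1.38, of which 2 passed with 18 arrays and 8 with 17, while KDR, FLT1, TIE1 and CDH5 lay near 0.

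Both calls of RA early HF were lost when any 1 array of the compared groups was left out. Without any 1 of the 3 RA control or 3 RA early arrays, LMO2 stood at an adjusted p of 0.0595 to 0.146 and PECAM1 at 0.0593 to 0.14 in limma, and 0 of 17 passed. The LMO2 change stayed between 1.28 and 1.48 and that of the PECAM1 probe set between 0.65 and 0.74. With the library labelled RA late 3 left out as well, 3 to 8 probe sets passed.

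Members were read against the other comparisons in the same way. In RA late HF, 0 of 17 passed with 18 arrays (0.0699% of all probe sets did), with 9 at an unadjusted p under 0.05 (11.7% of all). With 17 arrays, 4 were higher and 1 lower against a background of 1.65%. These were both probe sets of EMCN, both of LMO2 and, lower, VEGFA. They rest on 2 RA late arrays, RA late 1 and RA late 2. On the brighter probe sets these read 10.14 and 9.34 for LMO2 and 9.84 and 9.09 for EMCN. RA late 1 had the lowest limma array weight of all 18 arrays, 0.305, with RA early 1 at 0.344 and the library labelled RA late 3 at 0.375. RA late 2 had the highest, 3.3. These weights came from all 18 arrays, so the library labelled RA late 3 entered the group mean behind them. In RV early HF, 0 passed with 18 arrays (0.105% of all) and VEGFA alone with 17 (0.54% of all), and 2 were under 0.05 unadjusted on 18 arrays (8.48% of all). In RV late HF, 0 passed with 18 arrays (background 0%, with 4 members and 9.21% of all under 0.05 unadjusted) and LMO2 alone with 17. Late against early HF gave 0 of 17 in either chamber (0% of all probe sets in both), with 1 member under 0.05 unadjusted in the RA (8.03% of all) and 0 in the RV (5.56% of all).

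Counts of probe sets whose arrays did not overlap need no shared estimate of spread. In RA early HF, 9 of 17 probe sets were higher on every array than in control and 1 was lower, beside 8.7% and 10.1% of all probe sets. Those 9 belonged to PECAM1, EMCN, VWF and LMO2, several to the same gene, so they are not independent. In RA late HF these were 3 and 1 (6.16% and 6.22% of all), and without the library labelled RA late 3 they were 8 and 5 (15.8% and 16.4% of all, with 2 arrays against 3). In the RV, 2 were higher and 2 lower at the early stage (7.35% and 8.46% of all), and 3 and 3 at the late stage (9.04% and 10.8% of all).

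Between chambers in controls, LMO2 was the member that stood apart. It was 1.08 higher in the RA than in the RV (SE 0.29, adjusted p = 0.0537 by limma, and 0.00872 with 17 arrays), and all 3 RA controls exceeded all 3 RV controls. The other 16 probe sets differed by -0.23 to 0.36, and 0 of 17 passed where 2.9% of all probe sets did (1 of 17 with 17 arrays, against 5.66%), with 1 under 0.05 unadjusted on 18 arrays (16.3% of all). In early HF, 3 of 17 were higher in the RA than in the RV, against 5.65% of all: LMO2 by 1.61 (SE 0.29, adjusted p = 0.00547) and 1.26 (SE 0.27, adjusted p = 0.0149) and PECAM1 by 0.64 (SE 0.14, adjusted p = 0.0155). With 17 arrays all 4 PECAM1 probe sets passed there, making 6 (8.99% of all). In late HF, 0 passed with 18 arrays (0.0272% of all, with 4 members and 11.8% of all under 0.05 unadjusted), and LMO2 (0.98) and PECAM1 (0.54) with 17 (3.15% of all).

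The difference between the chambers in the effect of HF was tested directly. For the early stage, 0 of 17 passed with either number of arrays (0.00388% of all probe sets with both), and 5 had an unadjusted p under 0.05 on 18 arrays (5.45% of all). These were both EMCN probe sets (0.71 and 0.79 larger in the RA), 2 of PECAM1 (0.52 and 0.71) and the dimmer LMO2 probe set (0.90, SE 0.39, adjusted p = 0.865 by limma). For the late stage, 0 passed (0.00777% of all) and 0 were under 0.05 unadjusted (7.87% of all). With 17 arrays, 0 passed and 4 were under 0.05 unadjusted (7.71% of all), both EMCN probe sets (0.65 and 0.68 larger in the RA) and 2 of PECAM1 (0.43 and 0.70). An atrial effect larger than the ventricular one was therefore not called for any member.

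The same values were also set against each other within each array, as the difference of 2 log2 signals, which removes anything that scales an array as a whole. Each of the 3 pairs was chosen after the values were seen, 1 gene higher and 1 flat in RA early HF, so the differences describe the arrays and were not tested. The EMCN signal minus the KDR signal lay at 0.01 to 0.41 in RA early HF and at -0.75 to -0.48 in RA controls, a change of 0.91. PECAM1 minus CDH5 lay at 2.13 to 3.25 against 1.52 to 2.10, a change of 0.83. LMO2 minus TIE1 lay at 2.44 to 3.09 against 1.23 to 1.76, a change of 1.30.

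In RA late HF the 3 changes were 0.81, 0.44 and 0.84, with groups that overlapped through the library labelled RA late 3. Without it they were 1.2, 0.78 and 1.22, and both arrays lay above all controls in each pair. In the RV, LMO2 minus TIE1 was 1.02 higher in early and 1.40 higher in late HF, EMCN minus KDR 0.32 and 0.36 higher, and PECAM1 minus CDH5 0.24 and 0.62 higher.

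**Figure D3:**
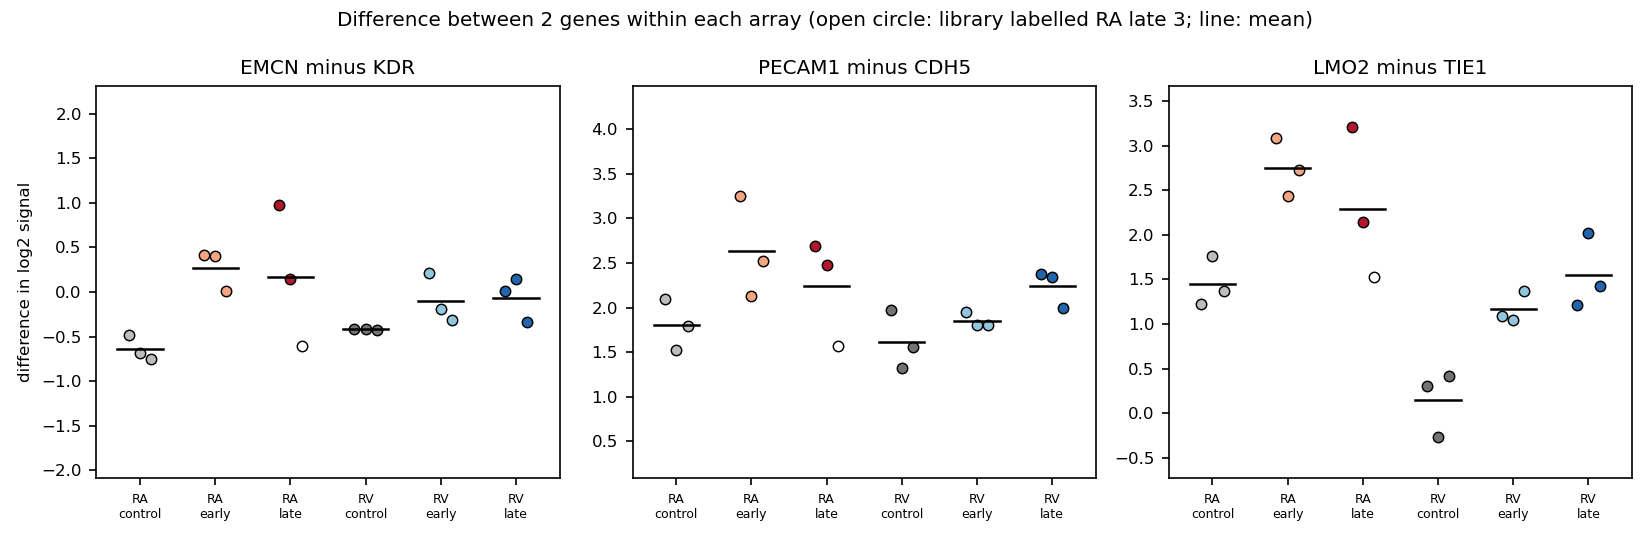
Difference in log2 signal between 2 genes on the same array (vertical axis), by chamber and stage; filled circles are arrays, the open circle is the library labelled RA late 3, and lines are means of 3. EMCN minus KDR, PECAM1 minus CDH5 and LMO2 minus TIE1 were higher on all RA early HF arrays than on all RA control arrays, by 0.91, 0.83 and 1.30 on average.

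Some marker lists of other cells were higher in RA early HF too, and others were flat or lower. In pieces of whole tissue, more cells of a type and more transcript per cell cannot be told apart. The summed log2 signal of 11 macrophage and myeloid markers (11 of 11 on the array, ITGAM below the limit) was 11.25 to 11.44 in RA controls, 12.15 to 13.09 in RA early HF and 11.31 to 12.98 in RA late HF. In the RV it was 11.15 to 11.26 in controls, 11.21 to 11.75 in early HF and 11.91 to 11.97 in late HF. The macrophage sum was thus above control on every RA early and every RV late array.

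The fibroblast sum (9 of 9, TCF21 below the limit) was 13.46 to 13.62, 14.16 to 15.08 and 12.97 to 14.81 in RA control, early and late HF, and 12.64 to 12.76, 13.09 to 13.32 and 13.46 to 13.78 in the RV. The list of other leukocytes (9 of 10, with PTPRC, CD3D, CD79A, CD79B and MS4A1 below the limit) moved less, from 8.86 to 8.92 in RA controls to 9.05 to 9.10 in RA early HF. The endothelial sum was 11.31 to 11.50 in RA controls, 11.71 to 12.09 in RA early HF and 11.54 to 12.05 in RA late HF. In the RV it was 11.36 to 11.67, 11.49 to 11.57 and 11.39 to 11.74. Most of this sum comes from the members VWF, EMCN, PECAM1 and KDR, so it is no separate readout. Its other genes averaged 6.04 and 6.19 (CLDN5), 5.98 and 6.15 (ESAM), 7.02 and 7.04 (ROBO4), 5.35 and 5.39 (ERG) and 6.58 and 6.81 (CLEC14A) in RA control and RA early HF. The median change of the 13 endothelial genes in RA early HF was 0.08, against 0.62 for the 10 tested myeloid genes, and by its brightest probe set 0 genes of either list passed in RA early HF on 18 arrays.

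Single genes of 3 other marker lists did pass in RA early HF on 18 arrays. In the list of pericytes and smooth muscle (11 of 11, CSPG4 and NOTCH3 below the limit), 2 of 9 tested genes rose, the pericyte gene RGS5 (1.05) and the myosin light chain kinase MYLK (1.6). The median change of the 9 was 0.35. KCNJ8 and CNN1 averaged lower, at 8.05 and 6.2 against 8.56 and 6.27 in RA controls, and the other tested genes averaged higher. The summed signal of that list was 12.04 to 12.48 against 11.79 to 12.05 in RA controls. Of dividing cells (3 of 6 on the array, CCNA2 below the limit), the topoisomerase TOP2A rose, at an average of 6.41 against 4.95 in RA controls, which is under the limit, and the sum was 8.62 to 9.46 against 7.15 to 8.04. Of 8 heart muscle genes, the troponin TNNT2 fell by 0.42, and the sum was 15.71 to 15.96 against 16.05 to 16.13, below control on every array. The adipocyte list had a median change of -0.55 in RA early and -0.75 in RA late HF, and of 0.31 and 0.54 at the same stages of the RV. None of its 8 genes passed in these comparisons. The erythroid, mesothelial and neural lists, with few genes tested, had medians of -0.08, -0.14 and 0.07 in RA early HF. The part of all these markers in the changes of PECAM1, LMO2, EMCN, VWF and VEGFA was not tested.

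RNA quality was read from GAPDH, whose 3' signal exceeded its 5' signal by 1.15 to 1.61 in RA controls and 1.29 to 1.62 in RA early HF. The excess was 1.05 to 1.25 in RV controls, 1.09 to 1.42 at the early and 1.28 to 1.47 at the late stage of the RV, above control on every RV late array. For the second such control, EF1A, the excess was far larger than for GAPDH, and how well it tracks RNA quality was not tested. It was 9.28 to 9.58 in RA controls, 9.45 to 9.64 in RA early HF and 8.36 to 9.54 in RA late HF. In RV control, early and late HF it was 8.01 to 8.28, 8.19 to 8.76 and 8.51 to 8.86. Every RV late array was again above control. The part of RNA quality in the RV late values and in the chamber differences was not tested. Without the library labelled RV late 1, the RV late change of LMO2 was 1.41 (SE 0.32, adjusted p = 0.32 by limma). Of the 17 probe sets 0 passed, as with all arrays kept. With the library labelled RA late 3 left out as well, 1 of 17 passed without RV late 1. In that setting 0 passed without RV late 2, without RV late 3 or without any 1 RV control.

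**Figure D4:**
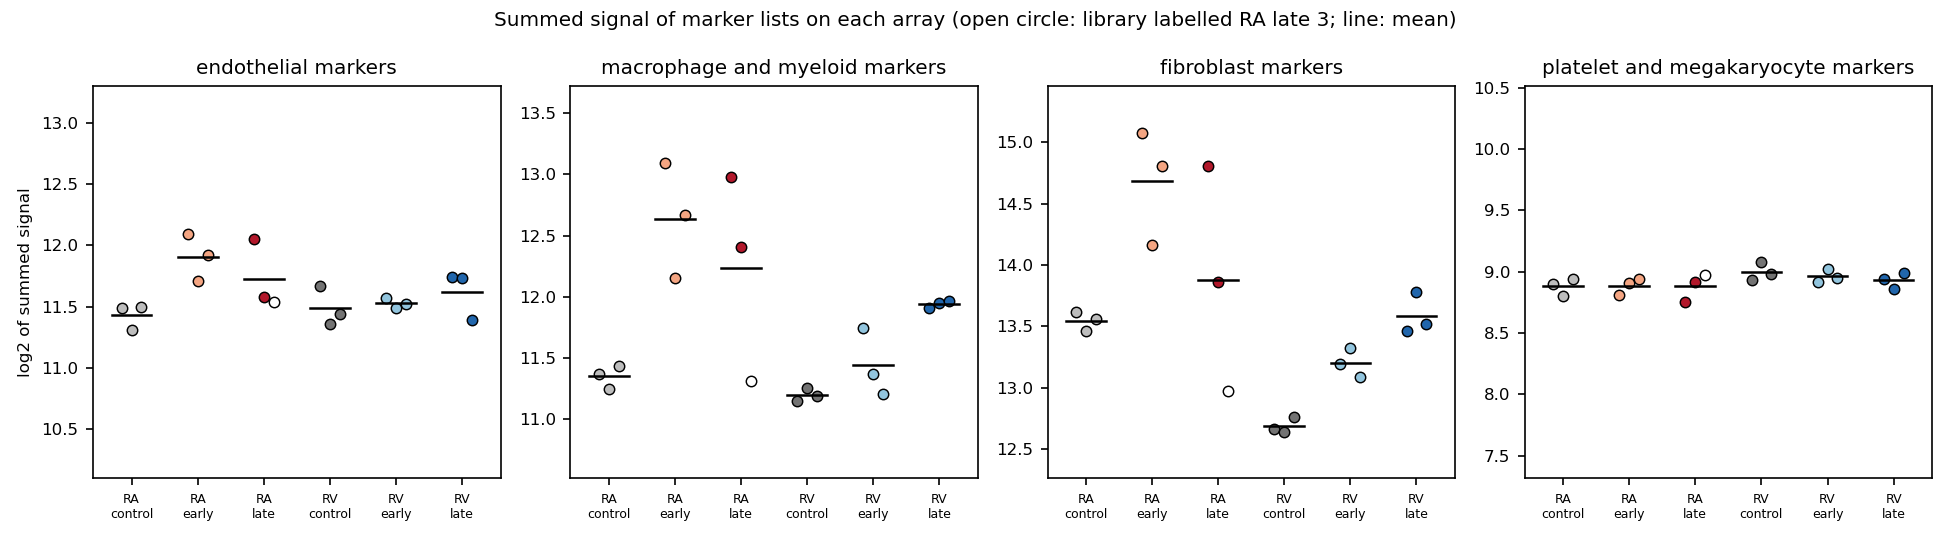
Log2 of the summed signal of 4 marker lists on each array (vertical axis), by chamber and stage; filled circles are arrays, the open circle is the library labelled RA late 3, and lines are means of 3. Macrophage and fibroblast sums were above control on all RA early HF arrays, and the platelet sum stayed at 8.81 to 8.94. The endothelial sum, made up mostly of members, was 11.71 to 12.09 there against 11.31 to 11.50.

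The wider set of VEGF ligands and receptors held no further call. Of 11 such genes, VEGFA, KDR and FLT1 included, 10 were tested and 0 passed in the comparisons of either HF stage with control on 18 arrays (0.746% of all genes passed in RA early HF, 0.0364% in RA late HF, and 0.1% and 0% at the early and late stages of the RV). On 17 arrays VEGFA was the 1 gene of the list that passed, in the comparisons given above. VEGFC, the ligand of lymphatic growth, was 0.53 higher in RA early HF (SE 0.19, adjusted p = 0.199 by limma) and stood at -0.01 in RV early HF. VEGFB, a ligand of FLT1 that is abundant in heart muscle, was at -0.38 in RV early HF (SE 0.12, adjusted p = 0.259) and at -0.22 in RA early HF. The co-receptor NRP1 was at -0.52 (SE 0.19, adjusted p = 0.412) and the placental growth factor PGF at -0.31 (SE 0.14, adjusted p = 0.557) in RV early HF. In RV early HF, VEGFA, VEGFB, PGF and NRP1 were the 4 of 10 genes under 0.05 unadjusted, all lower, where 8.48% of all probe sets were under it. FLT4, the lymphatic receptor, NRP2 and VEGFD lay between -0.12 and 0.16 in all 4 comparisons with control.

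**Figure D5:**
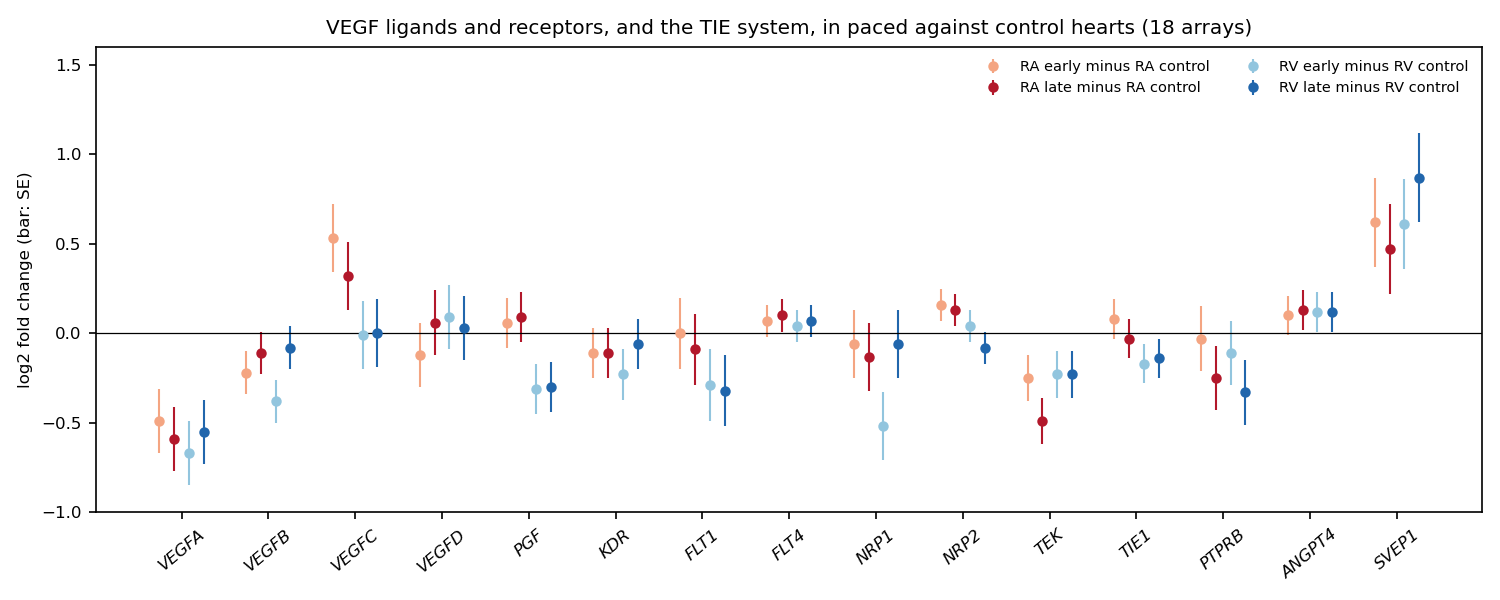
Log2 fold change against control (vertical axis, bars are SE, 18 arrays) of VEGF ligands and receptors and of the TIE system (horizontal axis) in RA and RV at early and late HF. VEGFA was at -0.49 to -0.67 in all 4 comparisons, KDR at -0.06 to -0.23, VEGFC at 0.53 in RA early HF and SVEP1 at 0.87 in RV late HF, and none passed.

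In the angiopoietin system 7 of 9 genes were tested, 0 passed in any of these comparisons, and ANGPT1 and ANGPT2 were below the signal limit. SVEP1, a matrix protein that binds TIE1, was 0.62 higher in RA early HF and 0.87 higher in RV late HF (SE 0.25, adjusted p = 0.426 by limma). Of 22 tested genes that act below VEGF receptors, 0 passed in RA early HF, with a median change of 0.12 beside -0.02 over all genes. The same held for 23 genes of oxygen sensing, many of them targets of the hypoxia factors that also drive VEGFA: 0 passed in either chamber at either stage against control, on 18 or 17 arrays. Their medians were 0.13 in RA early HF, 0.12 in RA late HF (0.07 with 17 arrays), and 0.06 and -0.03 at the early and late stages of the RV. HIF1A itself was 0.54 higher in RA early HF (SE 0.20, adjusted p = 0.199), and LDHA, a glycolytic target, was 0.72 higher in RV early HF (SE 0.20, adjusted p = 0.202).

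Of 31 tested genes of endothelial identity, each by its brightest probe set, 0 passed in RA early HF on 18 arrays (0.746% of all genes did), with a median of 0.16 and 24 above 0. With 17 arrays 3 were higher, PECAM1, EMCN and SPARCL1 (0.55), where 3% of all genes were called in either direction. Of 13 tested transcription factors of endothelial and blood cells, LMO2 alone passed in RA early HF, and with 17 arrays ELK3, an ETS-family repressor, joined it at 0.92. Of 16 genes of sprouting tip cells, 0 passed on 18 arrays, and with 17 arrays the basement membrane collagens COL4A1 (1.45, adjusted p = 0.00975 by limma) and COL4A2 (1.19) and the matrix protein SPARC (0.71) were higher. Fibroblasts also make these 3 matrix genes. The fibroblast sum was higher on the same arrays, as given above. The 8 tested fibroblast markers had a median change of 0.9 in RA early HF. On 18 arrays 0 of them passed, as did 0 of the 16 sprouting genes. The part of fibroblasts in the changes of COL4A1, COL4A2 and SPARC was not tested. Single genes of other vascular lists that rose in RA early HF on 18 arrays were the chemokine CCL2 (2.27), the lymphatic surface protein PDPN (1.43), also found on fibroblasts and macrophages, and the matrix gene POSTN. POSTN averaged 8.81 in RA early HF and 4.20 in RA controls, below the signal limit, so the size of its rise is not given.

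The members also differed in which genes followed the same pattern. Over the 18 arrays, which share group differences, and 10987 other genes, the nearest to LMO2 were P4HB (Pearson correlation 0.96), PIGK (0.96) and PGRMC1 (0.94). The nearest to PECAM1 were DLA-DQA1, a class II histocompatibility gene (0.95), LOC488622 (0.95) and IFI30 (0.94), and those to EMCN were LYZ, TYROBP and BZW1 (0.93 each). LYZ is in the macrophage and myeloid list. For VWF they were TXN (0.89), PLPP1 (0.88) and TMEM167A (0.86).

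The flat and lower genes had other neighbours. Every neighbour named here and above was picked for the highest correlation among 10987 genes, which favours high values, and none was tested. VEGFA was nearest to MARK2 (0.87), TUFM (0.87) and ANK1 (0.86), and KDR to ADCY5 (0.80), HPS1 (0.80) and HNRNPUL1 (0.78). TEK was nearest to NPR2 (0.79), TIE1 to PAX3 (0.85), CDH5 to HOXA9 (0.90) and FLT1 to SC5D (0.76). Among the members, EMCN and PECAM1 correlated at 0.87, PECAM1 and LMO2 at 0.85 and EMCN and VWF at 0.81, while PECAM1 and CDH5 stood at -0.45 and VEGFA and KDR at 0.62.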

How the data were processed

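Total RNA from 18 RA and RV samples was measured on Affymetrix Canine_2 arrays. The deposited values are log2 signals per probe set; the log2 scale was read from the values, and the submitters' processing notes name MAS5 with no version. These values were used as given. Of 43035 probe sets, 111 controls and the 40% of lowest mean were left out. Symbols came from the platform annotation (29254 probe sets with 1 symbol, 439 with several, 13231 with none). No array was a copy of another (97.5% or more of the values differ in each pair).

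Means of 6 groups were fitted with limma 3.58.1 in R 4.3.3 (12 residual degrees of freedom, trended prior, two-sided tests, Benjamini-Hochberg within each comparison); figures used matplotlib 3.10.9. On simulated data for RA early HF against control (25752 probe sets), 52.2% of 1.5-fold and 98.5% of 2-fold changes were recovered, with 6 false calls among 173. The simulated noise was independent, with the same spread in every group and no odd array, so these shares may not hold for the real arrays. There, LMO2 changes above 2-fold did not pass in some comparisons. All members are named; of other lists, genes past the threshold without overlap, up to 6, and otherwise up to 3 of smallest p, each by its brightest probe set. Members and lists were chosen with earlier results of these data known.

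Pairing by number was looked at in the data. RA and RV arrays of 1 condition and number had deviations from group means that correlated at 0.36, 0.24 and 0.42 in controls. These were 0.17, 0.26 and 0.15 in early HF, and 0.05, -0.42 and 0.15 in late HF. Correlations between arrays of unlike number were not computed and no animal is identified, so a pairing of RA with RV was not established. RA early 1 and RA late 1 also correlated at 0.36, and stages within a chamber were treated as unpaired. Alternatives varied the filter, scaling, groups fitted, array weights, probe sets, replicate block and arrays. Sequences and coordinates are not used here.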

Additional observations from a re-analysis of the deposited data

How the results depend on the processing

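Counts of members called out of 17 depended on the setting, and no change of a member that had passed turned its sign. For RA early HF against control, 2 became 1 after centring arrays on their medians, 7 after quantile normalization, 8 in a fit of the compared groups only, 8 with array weights and 1 without probe sets ending in _x_at or _s_at. With array weights, 3 passed in RA late HF, 2 in RV early HF and 1 in RV late HF. In a fit of the compared groups only, 2 passed in RV late HF. For RA against RV in controls, 1 passed with quantile normalization, with the compared groups only and with array weights. The replicate block gave 3 calls in RA early HF (number within a chamber, where stages are not known to be paired). For RA against RV in early HF it gave 7 in place of 3 with all conditions paired, and 3 with pairs in controls and early HF only. Neither pairing was established. The block changed no other count beyond 1.5 times. Leaving out 1 array gave 0 to 9 calls in RA early HF, 0 to 5 in RA late HF, 0 to 1 in late against early RA HF (1 without RA late 1), 0 to 1 in RV early HF, RV late HF and the control chambers, 1 to 6 between the chambers in early HF (1 without RA early 1 or RV early 3), 0 to 2 in late HF, and 0 for late against early RV HF and both chamber differences. The highest count came without the library labelled RA late 3, except for late against early RA HF. With that library out and another array left out, counts were 3 to 8 in RA early HF, 0 (without RA late 1) to 9 in RA late HF, 3 to 6 between chambers in early HF and 0 to 6 in late HF, and 0 to 1 in RV early HF, RV late HF and the control chambers. The last setting and the pairs in controls and early HF only were chosen after seeing the data. The causes were not tested. Signal near background limits FLT1, CDH5 and TIE1, with 5 probe sets under the limit, and 3 arrays a group left changes of 1.5-fold often uncalled on simulated data.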
